A study of Mus musculus with 8 samples.

Results

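Gpi1, Gapdh and Pgk1, which encode enzymes of glycolysis, and Actb, which encodes beta-actin, were examined in the mouse parotid, a large salivary gland. They are 4 of the 48 genes that can be paired with a probe on these arrays. Gpi1 and Actb are each read by 1 probe named through its RefSeq accession. Gapdh and Pgk1 are each read by a pair of control probes, which the array design labels as mouse and as lying at the 3' or the 5' end of the transcript. Each of these 6 probes is printed as 10 spots.

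The db/db group had 4 arrays, from 16-week-old male mice that are deficient in the leptin receptor, weighed 40 to 55 g and are used as a spontaneous model of type 2 diabetes. The db/m group had 4 arrays, from age-matched males of 25 to 30 g. Animals of the study were anesthetized with chloral hydrate at 0.4 g/kg, and glands were frozen in liquid nitrogen. Per the labels, ribosomal RNA was removed and the remaining RNA was copied from random primers over the full transcript and labelled with Cy3. The receptor deficiency is not limited to the gland, and each array reads whole gland RNA, so fewer cells of a type and less RNA per cell cannot be told apart. Whether every db/m array had its own animal is not written in the labels. All p-values here therefore refer to spread among arrays, part of which may be technical.

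In glycolysis, glucose-6-phosphate isomerase, the product of Gpi1, converts glucose-6-phosphate to fructose-6-phosphate. Glyceraldehyde-3-phosphate dehydrogenase, encoded by Gapdh, and phosphoglycerate kinase 1, encoded by Pgk1, catalyse consecutive later steps, of which the last yields ATP. Beta-actin builds the cytoskeleton, and in salivary acinar cells actin lines the membrane where secretory granules open. Gapdh, Actb and Pgk1 are widely used as reference genes, against which other transcripts are expressed as ratios. Glycolytic genes are textbook targets of hypoxia-inducible factor, which binds a core motif, ACGTG or GCGTG.

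The upstream sequences of the 3 glycolytic genes are shown because their transcripts did not move in a common direction between the groups. Each is the 250 bases before the annotated start, 5' to 3' on the gene's own strand, from RefSeq on build GRCm38.p6. The array design header names another build, mm9, and no coordinates were taken from the arrays. Capitals mark ACGTG or GCGTG on either strand.
Gpi1 promoter, chr7:34230337-34230586, minus strand: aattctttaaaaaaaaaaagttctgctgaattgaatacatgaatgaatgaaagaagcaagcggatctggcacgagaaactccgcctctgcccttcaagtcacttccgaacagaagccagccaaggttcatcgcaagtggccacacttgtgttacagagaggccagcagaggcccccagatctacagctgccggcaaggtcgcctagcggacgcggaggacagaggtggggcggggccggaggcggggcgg
Gapdh promoter, chr6:125165774-125166023, minus strand: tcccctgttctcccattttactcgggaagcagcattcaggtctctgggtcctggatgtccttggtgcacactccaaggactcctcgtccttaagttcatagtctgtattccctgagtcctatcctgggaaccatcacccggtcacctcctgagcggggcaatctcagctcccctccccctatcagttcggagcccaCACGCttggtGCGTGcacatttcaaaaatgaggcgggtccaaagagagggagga
Pgk1 promoter, chrX:106186850-106187099, plus strand: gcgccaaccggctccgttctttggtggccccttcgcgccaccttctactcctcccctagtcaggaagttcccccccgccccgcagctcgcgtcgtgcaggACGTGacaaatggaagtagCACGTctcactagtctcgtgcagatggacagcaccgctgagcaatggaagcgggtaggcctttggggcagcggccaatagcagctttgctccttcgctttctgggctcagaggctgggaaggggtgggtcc
The Pgk1 window holds 2 matches to ACGTG, which start 150 and 131 bases before the annotated start. The Gapdh window holds 2 matches to GCGTG, at 54 and 44 bases before it, and the Gpi1 window holds 0 matches to either form. Of 32851 mouse promoter windows of the same length, 16.6% hold ACGTG, 28.2% hold GCGTG and 38.6% hold at least 1 of them. The GC box, searched as GGGCGG on both strands, is present 2 times in the Gpi1 window and 1 time in the Pgk1 window, and 32.7% of all windows hold it. The GC content is 55.2% for Gpi1, 55.6% for Gapdh and 62.8% for Pgk1, against a median of 52.4% over all windows. These matches are letters in a window, and binding was not measured. Whether they have a part in the differences between the groups was not tested.

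In db/db glands, Gpi1 and Gapdh transcripts were more abundant and Pgk1 and Actb transcripts less abundant than in db/m glands. Gpi1 was 1.85-fold higher and Gapdh 1.49-fold higher at its 3' probe. Actb was 1.47-fold lower and Pgk1 1.40-fold lower at its 3' probe. The difference was tested with limma over 54642 probes, and 5 of the 6 probes passed at an adjusted p below 0.05, 3 higher and 2 lower in db/db. Over all probes tested 27.8% passed, 15.9% higher and 11.9% lower. The db/db and db/m arrays did not overlap at those 5 probes, and 30.7% of all tested probes had groups without overlap, 16.9% with db/db higher and 13.8% with db/db lower. The directions of these 4 genes were known before the probes were chosen, so the count of 5 is a description.

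Gpi1, the first of these enzymes in the pathway, had the highest fold change of the 4 genes. Its log2 intensity, relative to the 75th percentile of the array, was 5.53, 5.39, 5.66 and 5.75 in db/db replicates 1, 2, 5 and 8. It was 4.74, 4.77, 4.63 and 4.66 in db/m replicates 2, 5, 7 and 8. Every db/db array lay above every db/m array, with a gap of 0.62 between the nearest arrays. The difference was 0.89 ± 0.10 (SE, n = 4 each, limma adjusted p = 0.000276), with a 95% interval from 1.59-fold to 2.15-fold. Before scaling, the mean processed intensity ran from 15209 to 20372 on db/db arrays and from 8473 to 8788 on db/m arrays.

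Gapdh, the dehydrogenase, was read at both ends. At the 3' probe the log2 intensity was 4.22, 4.02, 4.25 and 4.47 in db/db replicates 1, 2, 5 and 8, against 3.66, 3.74, 3.55 and 3.72 in db/m replicates 2, 5, 7 and 8. All db/db arrays were higher, with db/db replicate 2 the closest to db/m. The difference was 0.57 ± 0.11 (SE, n = 4 each, limma adjusted p = 0.00458). At the 5' probe the values were 2.62, 2.36, 2.51 and 2.71 in db/db and 2.26, 2.24, 2.14 and 2.30 in db/m, in the same order of replicates. The groups were again apart, but db/db replicate 2 stood 0.06 above db/m replicate 8. The difference of 0.31 ± 0.09 (SE, n = 4 each, limma adjusted p = 0.0356) was near the threshold. The 5' call was lost on leaving out any array except db/db replicate 2, with adjusted p from 0.0521 to 0.0874, and with the slide column as a block, at 0.0589. It was also lost when arrays were scaled to their median, at 0.0876.

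Pgk1, the kinase that follows Gapdh in the pathway, went the other way. At the 3' probe the log2 intensity was 2.999, 2.88, 3.09 and 3.22 in db/db replicates 1, 2, 5 and 8, and 3.61, 3.50, 3.55 and 3.46 in db/m replicates 2, 5, 7 and 8. All db/db arrays were lower, and db/db replicate 8 was the closest to db/m, 0.24 below its lowest array. The difference was -0.48 ± 0.09 (SE, n = 4 each, limma adjusted p = 0.00528).

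The 5' probe of Pgk1 was dim, with a mean processed intensity between 31.1 and 39.5, although no array had it near background by the scanner software's flag. Its log2 intensity was -3.45, -3.54, -3.45 and -3.32 in db/db and -3.09, -3.33, -3.15 and -3.22 in db/m. The groups overlapped, since db/db replicate 8 lay above db/m replicate 5. The difference was -0.24 ± 0.09 (SE, n = 4 each, limma adjusted p = 0.0654) and did not pass. It passed under 6 of 24 alternatives, with quantile normalization among them (-0.33, adjusted p = 0.0304).

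Actb, the cytoskeletal gene of the set, was lower in db/db. Its log2 intensity was 1.27, 1.27, 1.03 and 1.12 in db/db replicates 1, 2, 5 and 8, and 1.73, 1.66, 1.72 and 1.80 in db/m replicates 2, 5, 7 and 8. The groups were apart by 0.39. The difference was -0.55 ± 0.09 (SE, n = 4 each, limma adjusted p = 0.00177).

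**Figure D1:**
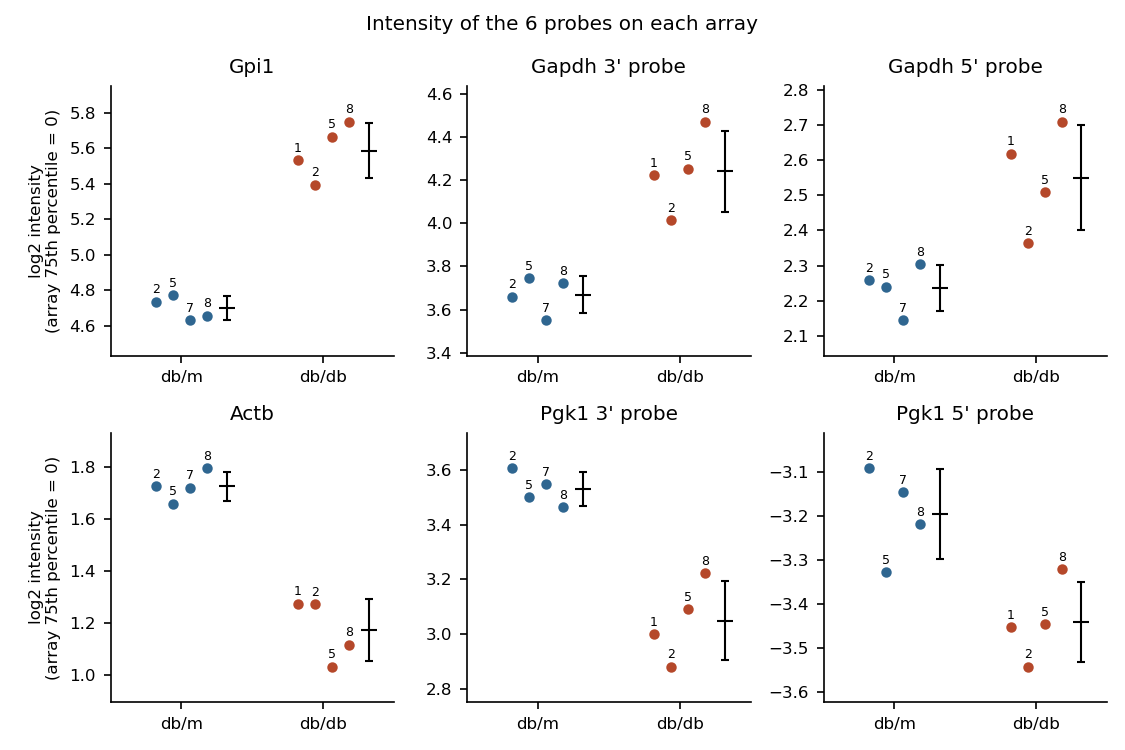
Log2 intensity of the 6 probes on each array, with the 75th percentile of the array at 0; points are arrays, numbers are replicate numbers, and bars are the mean ± SD of 4 arrays. Gpi1 and both Gapdh probes are higher on all db/db arrays, Actb and the 3' probe of Pgk1 are lower on all of them, and at the 5' probe of Pgk1 the groups overlap.

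The 10 spots of a probe agreed closely within an array. For Gpi1, Actb and both Gapdh probes the SD over spots was at most 0.09 on the log2 scale, and at the 3' probe of Pgk1 it was at most 0.06. For the dim 5' probe of Pgk1 it lay between 0.10 and 0.21. No spot was saturated. Spots in the upper and in the lower part of the array gave the same direction at all 6 probes.

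The 4 genes were also compared within each array, where any scaling that multiplies a whole array drops out. Of 6 ratios between genes, 5 had groups without overlap. This was fixed in advance for Gpi1 or Gapdh against Actb or Pgk1, whose probes already separated the groups in opposite directions. The ratio of Gpi1 to Actb was 4.26, 4.12, 4.63 and 4.63 on the log2 scale in db/db replicates 1, 2, 5 and 8, and 3.01, 3.11, 2.91 and 2.86 in db/m replicates 2, 5, 7 and 8. The groups were apart by 1.01. The difference in this ratio was 1.44 ± 0.14 (SE, n = 4 each), or 2.71-fold.

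The ratio of Gpi1 to Pgk1 at its 3' probe was 2.53, 2.51, 2.57 and 2.52 in db/db, and 1.13, 1.27, 1.08 and 1.19 in db/m. The db/db arrays lay within 0.06 of each other, while Gpi1 alone ranged from 5.39 to 5.75 on the same arrays. The groups differed by 1.37 ± 0.04 (SE, n = 4 each), or 2.58-fold. The ratio of Gapdh to Pgk1, the consecutive steps, was 1.22, 1.13, 1.16 and 1.25 in db/db and 0.05, 0.24, 0.0028 and 0.26 in db/m at the 3' probes. That difference was 1.05 ± 0.07 (SE, n = 4 each), or 2.07-fold.

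Gapdh against Actb differed by 1.12 ± 0.15 (SE, n = 4 each), with db/db arrays between 2.74 and 3.35 and db/m arrays between 1.83 and 2.08. The Gpi1 probe rose more than the 3' probe of Gapdh. Their ratio was 1.31, 1.38, 1.41 and 1.28 in db/db and 1.08, 1.03, 1.08 and 0.94 in db/m. The difference was 0.31 ± 0.05 (SE, n = 4 each). The 3' and 5' probes of Gapdh itself moved apart by 0.26 ± 0.04 (SE, n = 4 each), so this difference does not rank the genes. All 5 of these ratios reached the minimum of the two-sided exact permutation test with 4 arrays per group, p = 0.0286. The adjusted p was 0.0327 over the 8 ratios computed. Of these, only the ratio of Gpi1 to Gapdh was free to overlap, so the p-values of the others add nothing to the single probes.

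Pgk1 and Actb, the pair that fell, did not separate the groups in their ratio. It was 1.73, 1.61, 2.06 and 2.11 in db/db and 1.88, 1.84, 1.83 and 1.67 in db/m. The db/db arrays lay on both sides of the db/m arrays, with replicates 1 and 2 low and replicates 5 and 8 high. The difference was 0.07 ± 0.13 (SE, n = 4 each, exact permutation p = 0.543). That does not show that the ratio is the same in both groups, since the db/db arrays alone span 0.50.

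**Figure D2:**
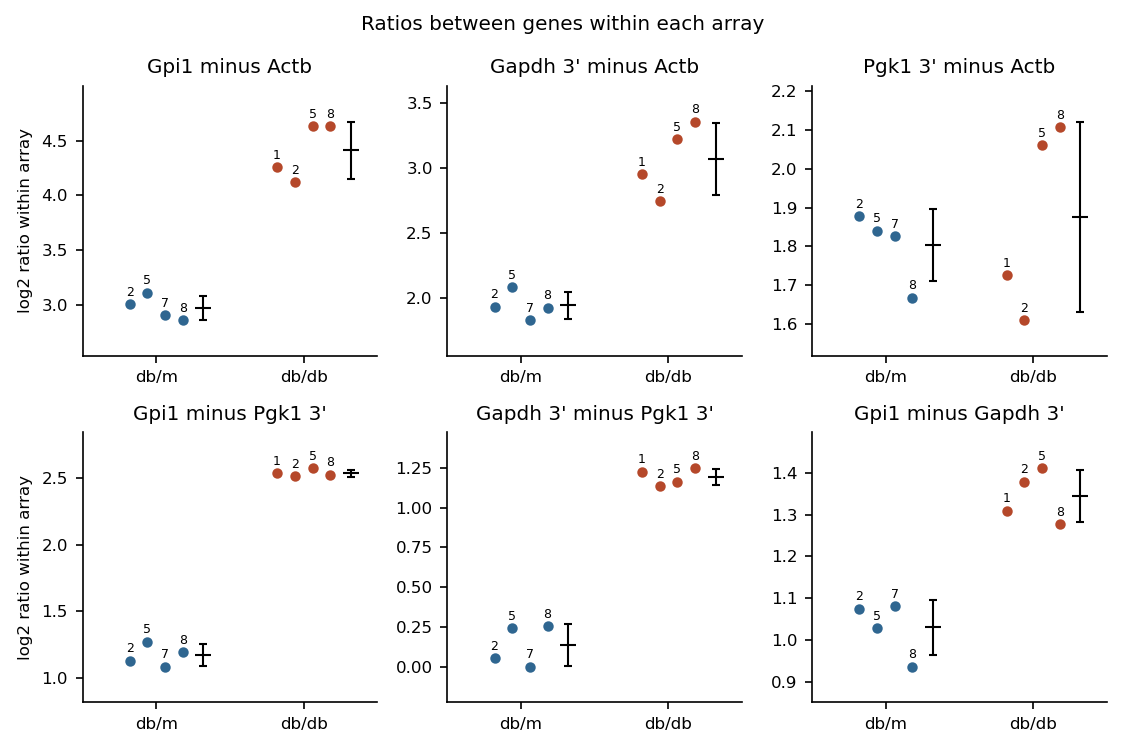
Log2 ratio between genes within each array; points are arrays with their replicate numbers, and bars are the mean ± SD of 4 arrays per group. In 5 of 6 panels the groups do not overlap, and for Pgk1 against Actb the db/db arrays lie on both sides of the db/m arrays.

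At both genes the 5' probe moved in the same direction as the 3' probe, but by less. The differences were 0.57 at the 3' and 0.31 at the 5' probe of Gapdh, and -0.48 and -0.24 for Pgk1. Since the genes moved in opposite directions, a smaller 5' shift gives 3' minus 5' changes of opposite sign. The Pgk1 5' probe was dim, with mean processed intensities from 31.1 to 39.5. The 3' minus 5' difference of Gapdh was 1.60, 1.65, 1.74 and 1.76 in db/db replicates 1, 2, 5 and 8, and 1.40, 1.51, 1.41 and 1.42 in db/m replicates 2, 5, 7 and 8. It was thus larger on every db/db array, by 0.26 ± 0.04 (SE, n = 4 each, exact permutation p = 0.0286). For Pgk1 it was 6.45, 6.42, 6.54 and 6.54 in db/db and 6.70, 6.83, 6.70 and 6.68 in db/m, and so smaller on every db/db array, by a difference of -0.24 ± 0.05 (SE, n = 4 each, exact permutation p = 0.0286). Both had an adjusted p of 0.0327 over the 8 ratios. With quantile normalization the Pgk1 value was -0.13 with an adjusted exact permutation p of 0.0653, and with the upper part of the array it was -0.16 with the same p. The integrity of the RNA was not measured here, and its part in the differences was not tested.

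The array also carries probes for human and rat GAPDH and PGK1, 8 in all, at the same ends. Of these, 7 were well above background on all 8 arrays, and the human PGK1 5' probe on 6 of them. The files do not say which mouse transcript each one binds. All 4 of the GAPDH probes were higher on every db/db array than on any db/m array, as were 16.9% of all tested probes. The human GAPDH 3' probe lay between 3.33 and 3.54 in db/db and between 2.80 and 2.92 in db/m, a difference of 0.58 ± 0.05 (SE, n = 4 each). The mouse 3' probe had differed by 0.57, with a limma SE of 0.11. The SEs of the human and rat probes come from the SDs of the groups instead. The human GAPDH 5' probe differed by 0.34 ± 0.03, the rat 3' probe by 0.44 ± 0.05 and the rat 5' probe by 0.39 ± 0.04 (SE, n = 4 each).

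The PGK1 probes were lower or overlapped. The human PGK1 3' probe lay between 2.28 and 2.53 in db/db and between 2.81 and 2.98 in db/m, a difference of -0.49 ± 0.06 (SE, n = 4 each), beside -0.48 at the mouse probe. The other 3 were dim, with mean processed intensities between 10.9 and 60.3. Of these, the rat 5' probe differed by -0.28 ± 0.06 without overlap, while the human 5' probe (-0.22 ± 0.13, including the arrays on which it was not well above background) and the rat 3' probe (-0.12 ± 0.15) overlapped (SE, n = 4 each). The 6 human and rat probes without overlap each had an exact permutation p of 0.0286 and an adjusted p of 0.0381 over the 8 probes. The other 2 had exact permutation p of 0.171 and 0.400. Of all tested probes, 30.7% had groups without overlap, 13.8% with db/db lower.

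Within arrays, GAPDH minus PGK1 at the human 3' probes differed by 1.07 ± 0.04, beside 1.05 ± 0.07 at the mouse probes and 0.55 ± 0.11 at the rat probes (SE, n = 4 each). These rat values rest on the dim rat PGK1 3' probe. The 3' minus 5' difference of GAPDH changed by 0.24 ± 0.07 at the human probes and by 0.05 ± 0.07 at the rat probes (SE, n = 4 each). The larger 3' shift was thus present at the mouse and human pairs, with db/db arrays all higher in both. At the rat pair the groups overlapped, with an exact permutation p of 0.600. The 3' minus 5' difference of PGK1 changed by -0.28 ± 0.09 at the human probes and by 0.16 ± 0.12 at the rat probes (SE, n = 4 each). The groups overlapped at both pairs, with exact permutation p of 0.0571 and 0.257, and the rat value had the opposite sign to the mouse value of -0.24. All these probes were read from the same 8 arrays and RNA, and so are not separate samples.

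**Figure D3:**
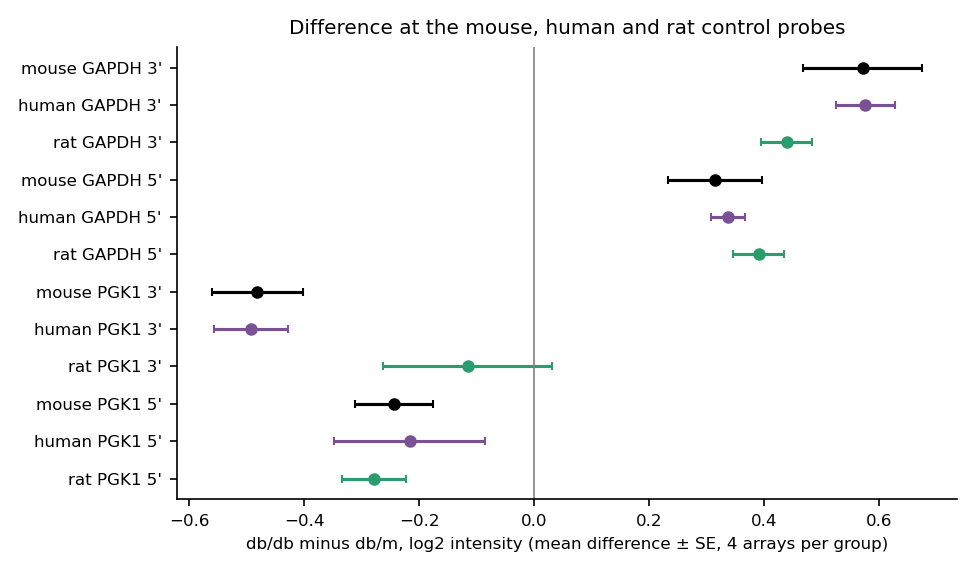
Difference between db/db and db/m in log2 intensity at the mouse, human and rat GAPDH and PGK1 control probes, as mean ± SE with 4 arrays per group. All 6 GAPDH probes lie above 0, from 0.31 to 0.58, and all 6 PGK1 probes lie below 0, from -0.49 to -0.12, the rat PGK1 3' probe within its SE of 0 and the human PGK1 5' probe well above background on 6 of 8 arrays.

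Since these genes often serve as references, all arrays were scaled to each of them in turn, an analysis chosen after the data were seen. Against the 75th percentile, limma called 8666 probes with higher and 6513 with lower intensity in db/db, 15179 in all. With Actb as reference, 43342 were higher and 1533 lower. With Pgk1, read at its 3' probe, 36805 were higher and 1643 lower. With Gpi1, 494 were higher and 46976 lower, and with Gapdh, read at its 3' probe, 1150 were higher and 34996 lower.

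These counts follow from the scaling itself, since dividing by a gene moves every probe by that gene's own difference, and they are given as a description. The median probe differed by 0.03 with the percentile, by 0.59 with Actb, by 0.51 with Pgk1, by -0.54 with Gapdh and by -0.85 with Gpi1. Among 43 tested protein coding genes with a named probe, 18 were higher and 6 lower with the percentile. With Actb as reference 36 of 42 were higher, and with Gpi1 31 of 42 were lower. The mean of all 4 genes gave 4702 higher and 8346 lower calls, with a median difference of -0.07. Against that mean, Gpi1 differed by 0.78 ± 0.09, Gapdh by 0.47 ± 0.09, Pgk1 by -0.59 ± 0.09 and Actb by -0.66 ± 0.11 (SE, n = 4 each, with Gapdh and Pgk1 at the 3' probe). Each gene is part of this mean, so some differences had to be positive and others negative.

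**Figure D4:**
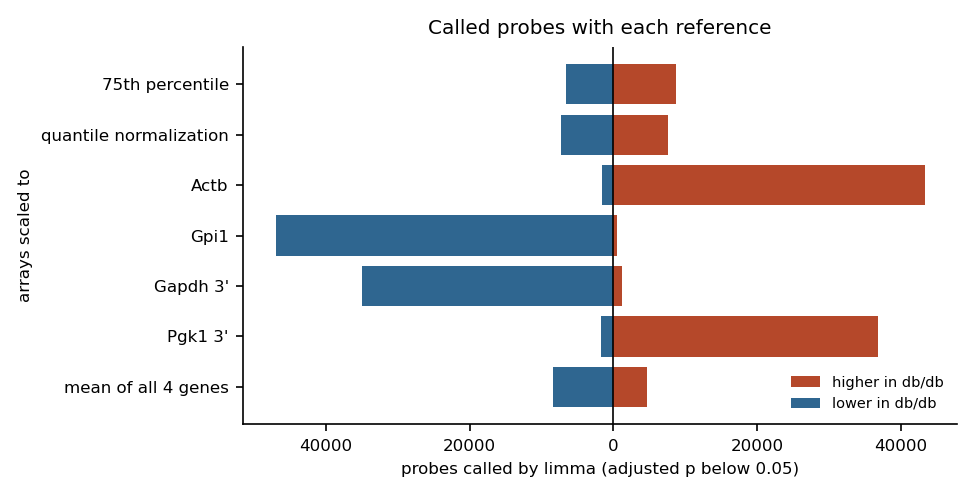
Number of probes called by limma at an adjusted p below 0.05, to the right where higher and to the left where lower in db/db, after scaling the arrays to the references named on the left. With Actb or Pgk1 the higher calls reach 43342 and 36805, and with Gpi1 or Gapdh the lower calls reach 46976 and 34996.

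Spread over all 8 arrays was set beside that of other probes. The SD of log2 intensity was 0.49 for Gpi1, 0.33 for Gapdh at its 3' probe, 0.31 for Actb and 0.28 for Pgk1 at its 3' probe. Of all tested probes, 88.0%, 74.3%, 70.4% and 64.5% had a smaller SD than these. The 5' probes of Gapdh and Pgk1 had SDs of 0.20 and 0.16, with 42.3% and 26.5% of probes smaller. These shares take in the difference between groups and the level of each probe, and are given as a description.

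Arrays of 1 group also differed from each other. Among the db/db arrays, Gpi1, Gapdh and Pgk1 at the 3' probes took the same order, lowest in replicate 2, then 1, 5 and 8. Replicate 8 lay above its group mean by 0.16 for Gpi1, 0.23 for Gapdh and 0.17 for Pgk1, and replicate 2 below it, at -0.19, -0.23 and -0.17. Actb did not follow that order, with replicate 1 at 0.10, replicate 2 at 0.10, replicate 5 at -0.14 and replicate 8 at -0.06. The db/m arrays deviated by at most 0.12 and showed no order shared by the 3 enzymes. The SD among db/db arrays was larger than among db/m arrays for Gpi1 (0.15 against 0.07), Gapdh at the 3' probe (0.19 against 0.09), Pgk1 at the 3' probe (0.15 against 0.06) and Actb (0.12 against 0.06). The difference in spread was not tested.

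**Figure D5:**
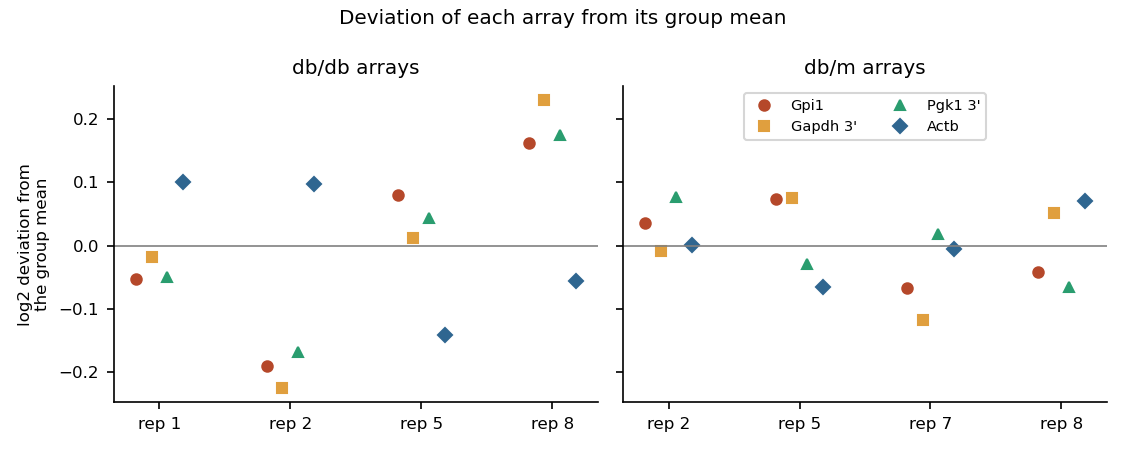
Deviation of each array from its group mean in log2 intensity for Gpi1, Gapdh and Pgk1 (3' probes) and Actb; points are arrays. Among db/db arrays the 3 glycolytic genes are lowest in replicate 2 and highest in replicate 8, and Actb is above its mean in replicates 1 and 2 and below it in replicates 5 and 8.

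Other genes were ranked by how closely they followed each of the 3 glycolytic genes from array to array, as Pearson's r over the 8 arrays after centring each group. For Gapdh at its 3' probe the closest of 44 named genes was Gpi1 (r = 0.90), and for Gpi1 it was Cpt1a, a carnitine transferase of fatty acid oxidation (r = 0.91). For Pgk1 at its 3' probe the closest were Cpt1a (r = 0.89) and Gpi1 (r = 0.86). The points share arrays and scaling, 8 is few, and the closest of many genes is high by selection, so these are descriptions. For the 3 glycolytic genes the db/db arrays spread more around their mean than the db/m arrays, and so weigh more in r. Among the db/m arrays alone these 3 genes did not share an order.

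Few relatives of the 4 genes could be read. Of 33 genes of glycolysis, gluconeogenesis and glucose uptake, 3 had a named probe, and these are the 3 described here. Of 14 genes of the pentose phosphate and glycogen branches 0 had one. Of 15 genes of actins, actin partners and related cytoskeleton, Actb was the 1 measured, and of 20 common reference genes the 4 described here were measured. The other steps of glycolysis were not analysed here.

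The arrays and the tissue also differed in other ways. The 75th percentile of processed intensity was 345 to 379 on db/db arrays and 317 to 348 on db/m arrays, and 89.4% to 92.3% of spots were well above background against 85.3% to 89.3%. Without any scaling the median probe was 0.18 higher in db/db, and the 4 genes kept their directions, from 1.03 for Gpi1 to -0.41 for Actb. The barcode of each array was read as its slide row and column. Each group filled 1 row on that reading, so slide row and group cannot be told apart. Of 43 marker genes of gland, immune, fat, nerve and stromal cells, 4 had a named probe, and no marker of acinar or duct cells was among them, so the tissue label was not checked. Mzb1, a plasma and B cell gene, differed by 1.09 ± 0.16 and Apoe, an apolipoprotein gene rich in macrophages, by 0.91 ± 0.23, while Il2, a T cell cytokine gene, differed by -0.36 ± 0.09 and Mbp, a myelin gene of Schwann cells, by 0.23 ± 0.12 (limma SE, n = 4 each). The first 3 passed, with limma adjusted p of 0.00145, 0.0178 and 0.0163, and Mbp had 0.203. Of all tested probes 27.8% passed, 15.9% higher and 11.9% lower in db/db. The Il2 probe was dim, with log2 intensity ranging from -4.48 to -3.87 across both groups. Every array read it below -3.54, the lowest value of the dim 5' probe of Pgk1, so its call rests on low signal. The part of these marker genes in the differences of Gpi1, Gapdh, Pgk1 and Actb was not tested.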

How the data were processed

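Parotid RNA was measured on 8 1-colour Agilent arrays, 4 per group, grouped by sample title. The authors' scanner files hold the intensity of each spot from Agilent Feature Extraction 11.0.1.1 (named in the submitters' processing notes), with a background-corrected processed intensity per the file headers. A deposited table gives log2 values of 60641 probes. It holds 0 of the 6 probes described here and was not used further, and the method behind it is not given in the sources used here.

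Each array has 62976 spots, of which 1439 are controls. Processed intensities were converted to log2 and set relative to the 75th percentile of the array, spots with outlier flags (18 to 55 per array) were left out, and spots of a probe were averaged. No between-array step other than this was applied. Of 60691 probes, those well above background on at least 4 arrays were tested together with the 4 mouse control probes (54642 in all), after 132 probes of special name series (negative and spike-in probes among them) had been set aside. The test was limma 3.58.1 (R 4.3.3), two-sided, adjusted by Benjamini-Hochberg over all probes tested. Ratios and the human and rat probes were compared by exact permutation tests (scipy 1.17.1), adjusted over the 8 ratios or the 8 probes. The fit was tested on simulated data. Of 50 accessions, 46 matched a RefSeq gene. The 4 genes and all lists were chosen with earlier results of these data known. Named genes are the 4 genes, measured genes of those lists, and the closest genes by r, of which those named above are a selection. The closest genes to Actb are not reported here. The number of arrays limits the precision.

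Alternatives were quantile normalization, normexp with an offset of 50, other percentiles or none, medians over spots, flagged spots kept and parts of the array. Other filters and priors, array weights, slide column and replicate blocks, and leaving out each array were also among them. Normexp was planned on the mean signal and run on the median signal, since the scanner data hold no mean signal column. For single probes an exact permutation test without adjustment was also counted as an alternative. Replicate numbers 2, 5 and 8 occur in both groups. The correlations of deviations of same-numbered arrays were -0.02, -0.13 and -0.17, so they were not treated as pairs.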

Additional observations from a re-analysis of the deposited data

Results flagged for a closer look

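In each of 48 sets of 4 arrays the highest and lowest value were checked for distance from the rest, a check that chance passes in about 1 of 20 sets. It picked out 2 values, both from the db/m replicate 5 array. Its Gapdh 3' minus 5' difference was 1.51, with the other db/m arrays between 1.40 and 1.42. Its Pgk1 3' minus 5' difference was 6.83, with the other db/m arrays between 6.68 and 6.70. Without that array the db/db minus db/m difference was 0.28 for Gapdh and -0.20 for Pgk1.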

How the results depend on the processing

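The call and direction of Gpi1, Actb and the Gapdh 3' probe were the same under each of 24 alternatives. Among these was an exact permutation test, whose p of 0.0286 was not adjusted. The Gapdh 3' call was nearest the threshold with the replicate block (0.54, limma adjusted p = 0.0494). The 3' probe of Pgk1 lost its call under the replicate block alone (-0.46, limma adjusted p = 0.0822). The Gapdh 5' probe lost it with the median of the array (0.26), the slide column block (0.31) and the replicate block (0.26, adjusted p = 0.191), and leaving out each array gave 0.26 to 0.38. The Pgk1 5' probe passed with quantile normalization (-0.33), normexp (-0.17), the median of the array (-0.30), the median over spots (-0.27), the upper part of the array (-0.31) and array weights (-0.25). The Pgk1 3' minus 5' difference was -0.13 with quantile normalization and -0.16 with the upper part. Pgk1 minus Actb was -0.0049 without db/db replicate 8 and 0.16 without db/db replicate 2, the lowest and highest on leaving out an array. The other ratios kept their direction. With 3 against 4 arrays the smallest exact p is 0.0571, so those ratios were compared by value. The count of called probes was 8522 with the replicate block, and 44875, 47470, 36146 and 38448 when scaled to Actb, Gpi1, Gapdh and Pgk1, which follows from that scaling. Leaving out each array gave 10546 to 16166. Calls with higher db/db intensity made up 57.1%, against 46.0% with normexp, 46.7% with the median and 80.0% with no scaling. The replicate block rests on the shared numbers 2, 5 and 8, and 0 of these 3 had their arrays correlating best with each other. Other causes were not tested. Signal over background limits the Pgk1 5' probe.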
